A study of Homo sapiens with 21 samples.

Results

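The aminoacyl-tRNA synthetases are the enzymes that attach each amino acid to its transfer RNA. Their genes were taken as the protein-coding genes whose symbol joins 1 amino-acid letter with ARS, ARS1 or ARS2, together with EPRS1, FARSA and FARSB. Described here are 35 of the 20970 genes in the 4 deposited expression tables, 19 for cytosolic enzymes and 16 for mitochondrial enzymes, and all 35 stood in every table and passed the filter on low values. GARS1 and KARS1 were counted with the cytosolic genes, although each of these genes makes enzyme for both compartments.

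The study asked how gene expression depends on METTL4, an adenine methyltransferase, in hypoxic cancer cells. RNA-seq libraries were made from FADU, a head and neck squamous carcinoma line, and from BFTC909, a transitional cell carcinoma line from the renal pelvis. In each line, cells given Scramble-si (Scr-si) in normoxia (18% O2) were compared with Scr-si cells after 18 h of hypoxia (1% O2), and the latter with METTL4-si cells in the same hypoxia, with 2 libraries per group. In normoxia, FADU lines stably overexpressing (OE) METTL4 or the long noncoding RNA RP11-390F4.3 from a plasmid were compared with a control line, again with 2 libraries per group, and the RP11-390F4.3 columns carried another name and were assigned by elimination. In hypoxia, 2 FADU clones with the catalytic DPPW motif of METTL4 mutated by prime editing were set beside 1 CRISPR control library. Each mutant library is thus 1 clone, and no source used here says that 2 libraries of a group came from separate cultures, so p-values measure only the spread between these libraries.

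The cytosolic enzymes charge the transfer RNAs used by ordinary ribosomes, and several of them sit together in a multisynthetase complex held by the scaffold proteins AIMP1, AIMP2 and EEF1E1 (AIMP3). A separate set of nuclear genes encodes the enzymes imported into mitochondria, where they serve the few proteins translated from mitochondrial DNA. Uncharged transfer RNA activates the kinase GCN2 (EIF2AK4), and phosphorylation of eIF2alpha by this or a related kinase raises translation of the transcription factor ATF4, whose known targets include many cytosolic synthetase genes and genes of amino acid synthesis and import. Hypoxia is known to engage another kinase of that group, PERK (EIF2AK3), in many cells.

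Values are the deposited TMM-normalized CPM (gene counts scaled to library size), and the libraries held 17781791 to 25410656 reads on genes. A gene was called where it changed at least 1.3-fold with an adjusted p below 0.05, by limma on log2(value + 1) with adjustment over all genes tested. Log2 fold changes are on this scale and come out too small for genes of low value. METTL4 itself read 31.9 and 30.8 in normoxia, 26.6 and 25.3 in hypoxia with Scr-si and 24.2 and 27.1 in hypoxia with METTL4-si in FADU, so that the METTL4-si libraries overlapped the Scr-si libraries (log2 fold change -0.017, adjusted p = 0.9). In BFTC909 it read 20.8 and 18.9 in normoxia, 19.0 and 15.6 in hypoxia with Scr-si and 14.4 and 12.2 in hypoxia with METTL4-si (METTL4-si against Scr-si -0.36, adjusted p = 0.0717). Both sets are therefore named by their label. METTL4 rose from 35.4 and 32.7 to 158 and 139 in the METTL4 OE line. The hypoxia gene CA9, a carbonic anhydrase, rose from 2.33 and 2.55 to 31.0 and 37.8 in FADU and from 0.358 and 1.17 to 54.0 and 56.2 in BFTC909, and stood at 1.87 and 2.22 and at 5.53 and 5.84 in the METTL4-si libraries of these lines.

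Cell type markers set some libraries apart. All 8 squamous epithelium markers were present in FADU. In BFTC909 3 of 8 urothelial and simple epithelium markers were listed, with KRT7, KRT19 and the uroplakin gene UPK2 among those that were not, and their summed value was 20.54 to 84.3 except in METTL4-si replicate 2, at 1222. Of 11 breast epithelium markers, some of which FADU itself expresses, 7 reached 1 CPM in FADU METTL4-si replicate 1 and in normoxia replicate 1 and 3 in each other FADU siRNA library, and TFF1 was at 0 outside these 2 libraries. The markers summed to 628 in FADU METTL4-si replicate 1 and 198 in normoxia replicate 1, against 72.3 to 114 in the other 4 libraries. Fibroblast markers summed to 116 and 25.6 in those 2 FADU libraries against 4.40 to 5.87 in the others. Among the OE libraries 5 breast epithelium markers were listed. All 5 reached 1 CPM in RP11-390F4.3 OE replicate 2 (sum 115), and 3 did in each other OE library (sums 83.7 to 102). The part of other cells or RNA in the results was not tested beyond giving each count without these 3 libraries, an alternative chosen after the data were seen. In bulk RNA, fewer cells of a type and less RNA per cell cannot be told apart.

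Cytosolic synthetase transcripts were the more abundant set. Per kilobase of exon, the median normoxic level in FADU was 26.3 CPM for the cytosolic genes and 6.94 for the mitochondrial genes, and in BFTC909 24.1 and 3.99. On this scale the highest levels in FADU were those of TARS1 (threonine), 94.4, EPRS1 (glutamate and proline), 65.0, and the mitochondrial isoleucine enzyme gene IARS2, 54.0. The 2 libraries of each of these 3 genes did not overlap those of the next gene in the order. In BFTC909 EPRS1, 60.4, TARS1, 56.9, and KARS1 (lysine), 55.4, led the order. NARS2 was the lowest in FADU at 1.69 and SARS2, the mitochondrial serine enzyme gene, in BFTC909 at 0.673. In FADU the 2 libraries of SARS2 and RARS2, next above NARS2, overlapped. This order depends on the length used, the merged length of all annotated exons, 16377 bases for NARS2 and 3098 for SARS2. Before division by length NARS2 averaged 27.7 CPM in normoxic FADU, and SARS2 was the lowest at 6.89. IARS1, with 22418 bases, averaged 344 CPM there, beside 346 for EPRS1.

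**Figure D1:**
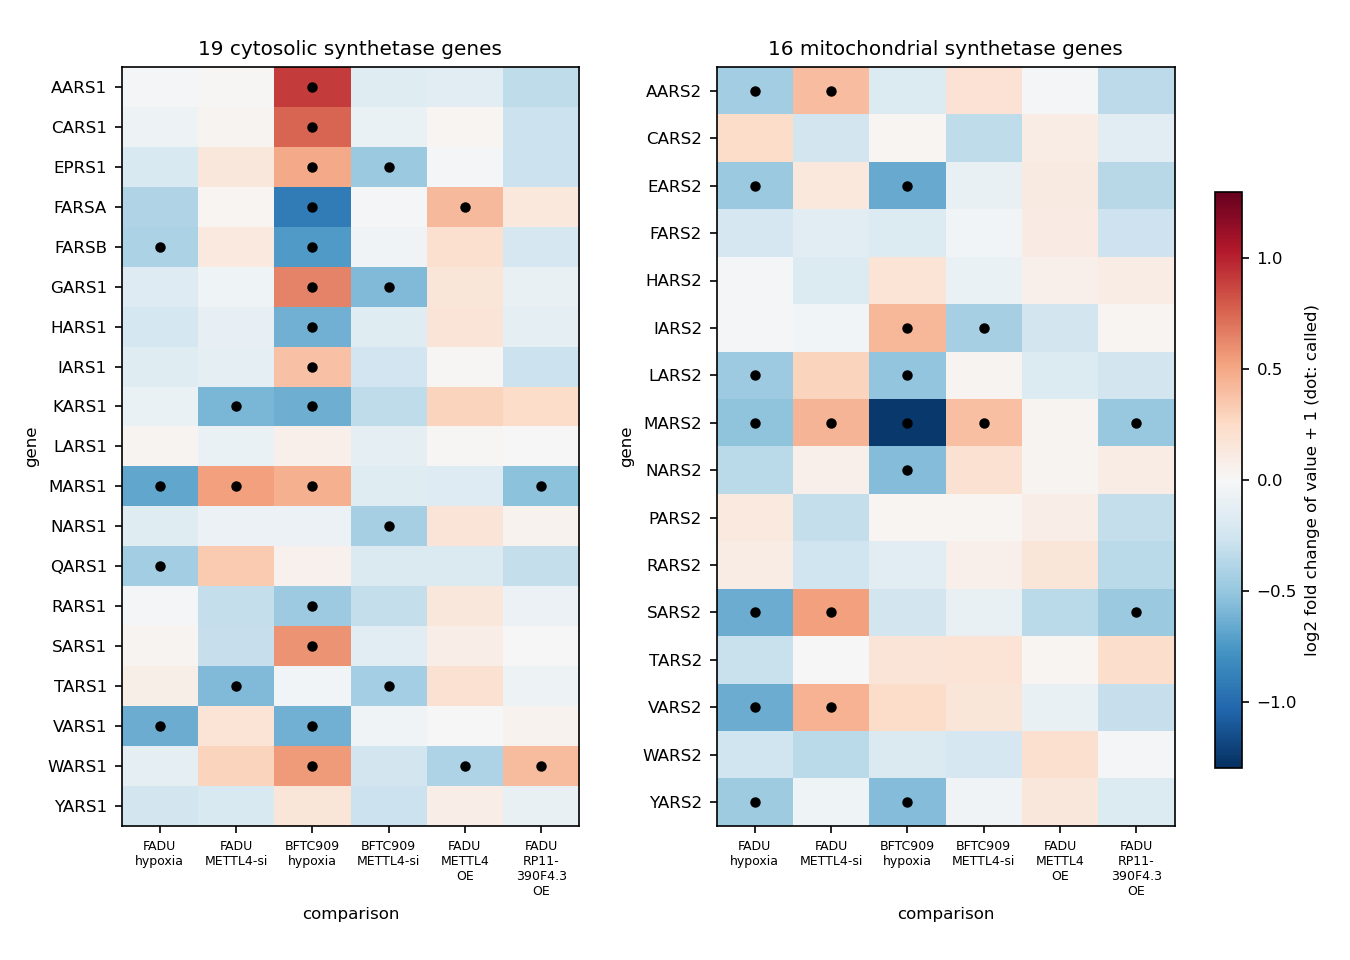
Log2 fold change (colour) of the 35 synthetase genes (rows, cytosolic left and mitochondrial right) in the 6 replicated comparisons (columns), with 2 libraries per group and a dot on each called gene. FADU hypoxia holds no called increase and 11 decreases, and BFTC909 hypoxia 9 increases and 11 decreases.

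In hypoxic FADU cells the called changes were decreases, and the mitochondrial set was well represented. Of the 35 genes 11 fell (all genes tested 9.65%), 4 of the 19 cytosolic and 7 of the 16 mitochondrial genes. By limma 0 rose (all genes 9.73%), and 0 rose by 1.3-fold at an unadjusted p below 0.05, in edgeR and in DESeq2. The median log2 fold change was -0.16 for cytosolic and -0.32 for mitochondrial genes, beside -0.026 over all genes. With METTL4-si in hypoxia 5 rose (all genes 12.5%) and 2 fell (all genes 15.3%), 1 and 2 cytosolic and 4 and 0 mitochondrial, a split of 3 and 2 after median-centring of the libraries. The medians were -0.058 and -0.013, beside 0.016 over all genes. Both comparisons use the same hypoxic Scr-si libraries, so a gene that was low in those libraries is drawn down in the first and up in the second.

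MARS1, the cytosolic methionine enzyme gene at chr12:57869228-57911352 (GRCh37), read 229.9 and 227 in normoxia, 145 and 141 in hypoxia with Scr-si and 204 and 211 in hypoxia with METTL4-si. Its hypoxic Scr-si libraries were the lowest 2 of the 6, with log2 fold changes of -0.67 ± 0.059 (SE), adjusted p = 0.000971, and 0.54 ± 0.059 (SE), adjusted p = 0.00125. VARS1, for valine, read 173 and 163 in normoxia, 106 and 108 in hypoxia with Scr-si and 123 and 118 in hypoxia with METTL4-si. It fell in hypoxia without overlap (-0.65 ± 0.064 (SE), adjusted p = 0.00149), and its METTL4-si libraries lay between the normoxic and the hypoxic Scr-si libraries (0.18, adjusted p = 0.0748).

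The 7 mitochondrial genes that fell were AARS2, EARS2, LARS2, MARS2, SARS2, VARS2 and YARS2, whose enzymes use alanine, glutamate, leucine, methionine, serine, valine and tyrosine. VARS2 read 25.2 and 24.6 in normoxia, 14.6 and 16.7 in hypoxia with Scr-si and 23.1 and 20.3 in hypoxia with METTL4-si. The hypoxic Scr-si libraries were the lowest pair, and the log2 fold changes were -0.64 ± 0.11 (SE), adjusted p = 0.00838, and 0.45 ± 0.11 (SE), adjusted p = 0.0192. SARS2, the lowest of the 7, read 6.73 and 7.06 in normoxia, 3.73 and 4.38 in hypoxia with Scr-si and 5.42 and 7.30 in hypoxia with METTL4-si. Its groups did not overlap in either comparison, but its error was wide (-0.65 ± 0.16 (SE), adjusted p = 0.0296, and 0.53 ± 0.16 (SE), adjusted p = 0.0411). MARS2 read 17.9 and 20.4 in normoxia, 13.5 and 12.5 in hypoxia with Scr-si and 17.9 and 18.2 in hypoxia with METTL4-si. Again the hypoxic Scr-si pair was lowest, with -0.52 ± 0.10 (SE), adjusted p = 0.014, and 0.45 ± 0.10 (SE), adjusted p = 0.0168. AARS2 read 41.1 and 40.03 in normoxia, 29.4 and 29.3 in hypoxia with Scr-si and 40.1 and 38.1 in hypoxia with METTL4-si. Normoxic and METTL4-si libraries were close and hypoxic Scr-si libraries lower, with -0.45 ± 0.072 (SE), adjusted p = 0.00723, and 0.40 ± 0.072 (SE), adjusted p = 0.00694.

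The remaining 3 mitochondrial genes fell in hypoxia and were not called with METTL4-si. EARS2 read 87.01 and 83.0 in normoxia, 62.6 and 58.8 in hypoxia with Scr-si and 65.0 and 68.4 in hypoxia with METTL4-si, a decrease without overlap (-0.48 ± 0.071 (SE), adjusted p = 0.00543). LARS2 read 58.9 and 62.4 in normoxia, 43.4 and 43.6 in hypoxia with Scr-si and 51.0 and 55.8 in hypoxia with METTL4-si, and its hypoxic libraries, with either siRNA, were below the normoxic pair (-0.47 ± 0.075 (SE), adjusted p = 0.00743). YARS2 read 59.2 and 63.7 in normoxia, 43.4 and 45.5 in hypoxia with Scr-si and 40.4 and 44.9 in hypoxia with METTL4-si, with all normoxic libraries above all hypoxic ones (-0.46 ± 0.083 (SE), adjusted p = 0.011). YARS2 overlaps DNM1L on the other strand, so reads of the 2 genes may not be separated, as the strand setting of the counting is not given in the sources used here. EARS2 overlaps GGA2 on the same strand.

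Among cytosolic genes, the pair that encodes the 2 subunits of the phenylalanine enzyme read lower in hypoxia. FARSB, the beta subunit, read 104 and 111 in normoxia, 82.2 and 78.0 in hypoxia with Scr-si and 81.2 and 93.9 in hypoxia with METTL4-si and was called (-0.41 ± 0.088 (SE), adjusted p = 0.0182). FARSA, the alpha subunit, read 41.7 and 38.5 in normoxia, 30.2 and 30.6 in hypoxia with Scr-si and 38.8 and 24.4 in hypoxia with METTL4-si. Its hypoxic Scr-si pair was below the normoxic pair, but it was not called (-0.39, adjusted p = 0.186), and its METTL4-si libraries were far apart. QARS1, for glutamine, also fell in hypoxia (-0.45, adjusted p = 0.00396). With METTL4-si, KARS1 fell from 182 and 179 to 121 and 119, with normoxic libraries at 187 and 197. Both METTL4-si libraries were thus below the other 4 (-0.59 ± 0.061 (SE), adjusted p = 0.000999). TARS1 read 389 and 415 in normoxia, 426 and 421 in hypoxia with Scr-si and 256 and 315 in hypoxia with METTL4-si. It fell with METTL4-si (-0.57 ± 0.10 (SE), adjusted p = 0.00693), although its 2 METTL4-si libraries were apart from each other.

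A further 6 genes, described for other comparisons, were called in neither FADU siRNA comparison. AARS1 (alanine) read 272 and 266 in normoxia, 256 and 278 in hypoxia with Scr-si and 275 and 264 in hypoxia with METTL4-si, all within a narrow range. CARS1 (cysteine) read 67.7 and 70.8 in normoxia, 64.7 and 68.0 in hypoxia with Scr-si and 63.0 and 73.1 in hypoxia with METTL4-si, with the groups overlapping. GARS1 (glycine) read 166 and 184 in normoxia, 155 and 156 in hypoxia with Scr-si and 144 and 156 in hypoxia with METTL4-si, slightly lower in hypoxia (-0.16, adjusted p = 0.168). EPRS1 read 321 and 371 in normoxia, 306 and 296 in hypoxia with Scr-si and 306 and 364 in hypoxia with METTL4-si, again without a call (-0.20, adjusted p = 0.226). IARS2 read 211 and 235 in normoxia, 219 and 222 in hypoxia with Scr-si and 203 and 229 in hypoxia with METTL4-si, an overlapping set. WARS1 (tryptophan) read 218 and 207 in normoxia, 202 and 191 in hypoxia with Scr-si and 224 and 258 in hypoxia with METTL4-si, and its METTL4-si increase stayed below 1.3-fold (0.29, adjusted p = 0.0364).

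Most of the smaller calls in FADU were lost when a single library of the compared groups was left out. Without normoxia replicate 1, normoxia replicate 2 or hypoxia replicate 1 the hypoxia comparison called 3 genes, and without hypoxia replicate 2 it called 2, in place of 11. MARS1 and VARS1 kept their calls in all 4 cases. AARS2 (adjusted p 0.0628 to 0.0833), FARSB (adjusted p 0.0826 to 0.149), LARS2 (adjusted p 0.0518 to 0.0818), MARS2 (adjusted p 0.0559 to 0.131), SARS2 (adjusted p 0.119 to 0.18), VARS2 (adjusted p 0.0501 to 0.082) and YARS2 (adjusted p 0.0595 to 0.103) lost theirs in each case, always with a negative log2 fold change. EARS2 lost its call without normoxia replicate 1 or hypoxia replicate 2 (adjusted p 0.0609 to 0.0767), and QARS1 in all cases but the first (adjusted p 0.0505 to 0.0616). With METTL4-si, 2 genes were called without either hypoxic Scr-si library, in place of 7. AARS2 (adjusted p 0.0652 to 0.0686), MARS2 (adjusted p 0.0759 to 0.128), SARS2 (adjusted p 0.114 to 0.215), TARS1 (adjusted p 0.0623 to 0.0639) and VARS2 (adjusted p 0.0607 to 0.141) then lost their calls, AARS2 and VARS2 also fell under 1.3-fold without METTL4-si replicate 1 (log2 fold changes 0.36 and 0.36), and SARS2 lost its call without METTL4-si replicate 2 (log2 fold change 0.35, adjusted p = 0.0851). Leaving out both marker-bearing FADU siRNA libraries together left 1 library each in normoxia and METTL4-si. The spread then came from the hypoxic Scr-si pair alone, so calls from that fit are not compared. AARS2 and VARS2 had log2 fold changes of 0.36 and 0.36 with METTL4-si there, as without METTL4-si replicate 1 alone.

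Other translation genes were also called in FADU. Over all genes tested 9.73% rose and 9.65% fell in hypoxia, and 12.5% rose and 15.3% fell with METTL4-si. These small lists have no test of their own. Of 12 mitochondrial translation partners, the elongation factor TUFM (-0.76) and the initiation factor MTIF2 (-0.43) fell in hypoxia and none rose. With METTL4-si TUFM rose (0.59) and the release factor gene MTRF1L fell (-0.47). Of the 3 complex scaffolds AIMP2 fell in hypoxia (-0.67). The 7 synthetases of the complex described here held 2 decreases (MARS1, QARS1) in hypoxia, and 1 increase (MARS1) and 1 decrease (KARS1) with METTL4-si. None of the 5 cytosolic elongation factor genes tested was called in hypoxia by limma, and EEF1A1 fell with METTL4-si (-1.003).

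In hypoxic BFTC909 cells the synthetase genes split. Of the 35, 9 rose (all genes tested 17.9%) and 11 fell (all genes 18.3%). Increases were nearly all cytosolic, at 8 of 19, with 6 of 19 falling, while 1 of 16 mitochondrial genes rose and 5 fell. The medians were 0.067 and -0.18, beside -0.022 over all genes. Among the cytosolic genes, the 12 known as ATF4 targets held all 8 increases and no decrease (median 0.47), and the other 7 held 6 decreases and no increase (median -0.63). The same lists had 0 increases and 1 decrease (median -0.14), and 0 increases and 3 decreases (median -0.39), in hypoxic FADU cells. The ATF4 list was chosen with earlier results of these data known, so the split is a description and not a test. With METTL4-si 1 gene rose (all genes 13.2%) and 5 fell (all genes 11.7%), 0 and 4 cytosolic and 1 and 1 mitochondrial, a split of 0 and 8 after median-centring and of 0 and 5 in DESeq2. The medians were -0.19 and -0.0027, beside 0.0099. The hypoxic Scr-si libraries again served both comparisons.

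**Figure D2:**
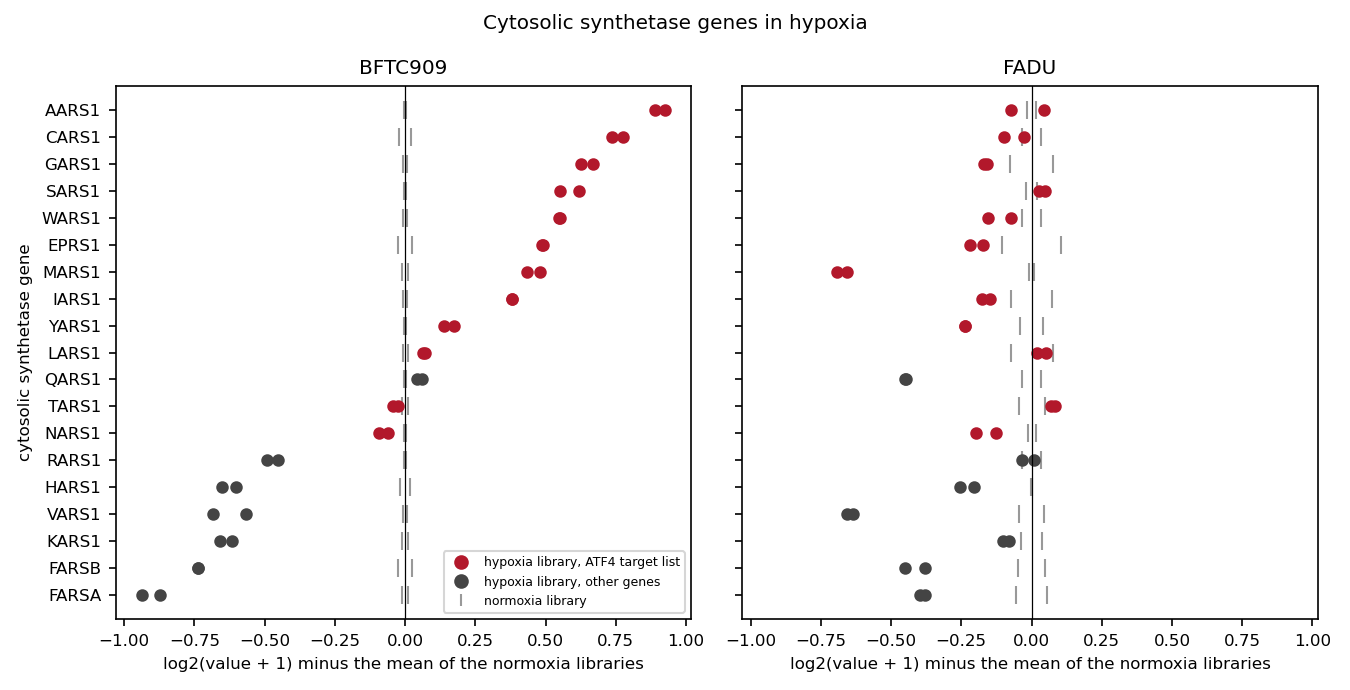
Log2(value + 1) of each library minus the mean of the 2 normoxia libraries (x axis) for each of the 19 cytosolic synthetase genes (y axis) in BFTC909 (left) and FADU (right), with points for hypoxia Scr-si libraries, red for known ATF4 targets and dark grey for other genes, and ticks for normoxia libraries. In BFTC909 the 8 called increases are all known ATF4 targets and the 6 called decreases are all among the other genes. The ATF4 list was chosen with earlier results of these data known.

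AARS1, at chr16:70285886-70323610, read 248 and 246 in normoxia, 458 and 470.2 in hypoxia with Scr-si and 409 and 425 in hypoxia with METTL4-si. It was the largest increase in hypoxia among the 35 genes in either line, without overlap (0.91 ± 0.06 (SE), adjusted p = 5.35e-05), and its METTL4-si libraries stayed well above normoxia. CARS1 read 112 and 116 in normoxia, 191 and 196 in hypoxia with Scr-si and 188 and 176 in hypoxia with METTL4-si. Its hypoxic libraries with either siRNA were all higher than the normoxic pair (0.76 ± 0.064 (SE), adjusted p = 0.000152). GARS1, at chr7:30620149-30673649, read 361 and 365 in normoxia, 560.1 and 577 in hypoxia with Scr-si and 414 and 353 in hypoxia with METTL4-si. It rose in hypoxia (0.65 ± 0.084 (SE), adjusted p = 0.000881) and fell with METTL4-si (-0.57 ± 0.084 (SE), adjusted p = 0.00253), where its 2 libraries lay on either side of the normoxic pair. The span of the divergent transcript GARS1-DT, on the other strand, overlaps GARS1, and GARS1-DT itself rose in hypoxia (1.063, adjusted p = 7.91e-05).

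MARS1 read 163 and 165 in normoxia, 222 and 229.9 in hypoxia with Scr-si and 202 and 202 in hypoxia with METTL4-si. Hypoxic libraries were above normoxic ones in both siRNA groups (0.46 ± 0.058 (SE), adjusted p = 0.000843), opposite in sign to FADU. WARS1 read 111 and 112 in normoxia, 164 and 164 in hypoxia with Scr-si and 138 and 139 in hypoxia with METTL4-si. It rose in hypoxia without overlap (0.55 ± 0.058 (SE), adjusted p = 0.000382). EPRS1 read 315 and 327 in normoxia, 450.3 and 452 in hypoxia with Scr-si and 353 and 294 in hypoxia with METTL4-si. It rose in hypoxia (0.49 ± 0.091 (SE), adjusted p = 0.00416) and fell with METTL4-si (-0.49 ± 0.091 (SE), adjusted p = 0.00674), though the METTL4-si pair was widely spaced. The other increases were those of SARS1 (0.59, adjusted p = 0.000351) and IARS1 (0.38, adjusted p = 0.00824). The mitochondrial increase was that of IARS2, which read 147 and 146 in normoxia, 195 and 202 in hypoxia with Scr-si and 156 and 137 in hypoxia with METTL4-si. Its hypoxic Scr-si libraries were the highest of the 6, with 0.44 ± 0.078 (SE), adjusted p = 0.00349, and -0.44 ± 0.078 (SE), adjusted p = 0.00557.

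To set sequence beside these 2 groups, promoters were searched for the core of the element that ATF4 binds with C/EBP proteins, TGATGNAA on either strand. RefSeq windows on GRCh38.p14, from 250 bases before to 50 bases after a start, were held for 30 of the 35 genes, and AARS2, LARS1, VARS1, VARS2 and YARS1 had none. The motif was found for 4.46% of all 27305 genes with a window, 7 of the 10 known ATF4 targets with one, 0 of the 6 other cytosolic genes and 1 of the 14 mitochondrial genes (YARS2). A gene can have several windows, and the match was in 7 of 15 windows of the targets and 0 of 6 windows of the others. How far the target list itself rests on this motif was not examined. Counted from the start, its first base lay at -187 in AARS1, -2 in CARS1, -33 in GARS1, -13 in IARS1, -4 in MARS1, 15 in NARS1 and 3 in TARS1. NARS1 and TARS1 carry it and were not called in hypoxia (-0.076 and -0.035), while EPRS1, SARS1 and WARS1 were called without it in these windows. The windows of 5 increased genes with the motif, and that of the decreased FARSA without it, are printed 5′ to 3′ on the gene's strand, with the match in capitals and with the GRCh37 coordinates where the same bases were found.
AARS1 (GRCh37 chr16:70323360-70323659, minus strand): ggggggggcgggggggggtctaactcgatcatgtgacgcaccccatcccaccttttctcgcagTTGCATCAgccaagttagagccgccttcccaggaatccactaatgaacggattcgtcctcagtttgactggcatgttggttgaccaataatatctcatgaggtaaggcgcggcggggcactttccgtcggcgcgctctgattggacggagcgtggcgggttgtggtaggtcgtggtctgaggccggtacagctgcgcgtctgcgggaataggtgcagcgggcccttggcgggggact
CARS1 (GRCh37 chr11:3078604-3078903, minus strand): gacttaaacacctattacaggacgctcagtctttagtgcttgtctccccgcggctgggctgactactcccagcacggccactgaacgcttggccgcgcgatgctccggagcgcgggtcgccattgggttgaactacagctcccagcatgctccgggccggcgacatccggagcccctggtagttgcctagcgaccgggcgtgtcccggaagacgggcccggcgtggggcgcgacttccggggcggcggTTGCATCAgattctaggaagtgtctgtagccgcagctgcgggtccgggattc
GARS1 (GRCh37 chr7:30634244-30634543, plus strand): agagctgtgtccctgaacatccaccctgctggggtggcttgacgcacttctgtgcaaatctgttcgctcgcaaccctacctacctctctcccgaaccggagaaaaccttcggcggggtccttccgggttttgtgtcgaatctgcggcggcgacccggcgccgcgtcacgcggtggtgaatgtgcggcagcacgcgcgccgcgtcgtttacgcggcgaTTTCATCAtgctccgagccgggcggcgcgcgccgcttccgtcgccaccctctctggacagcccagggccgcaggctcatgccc
IARS1 (GRCh37 chr9:95055930-95056229, minus strand): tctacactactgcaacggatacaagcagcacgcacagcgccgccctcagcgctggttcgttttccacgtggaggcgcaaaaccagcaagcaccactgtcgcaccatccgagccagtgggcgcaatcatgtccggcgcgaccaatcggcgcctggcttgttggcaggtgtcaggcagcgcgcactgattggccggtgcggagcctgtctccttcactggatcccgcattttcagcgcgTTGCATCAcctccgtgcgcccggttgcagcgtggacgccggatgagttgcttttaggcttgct
MARS1 (GRCh37 chr12:57881601-57881900, plus strand): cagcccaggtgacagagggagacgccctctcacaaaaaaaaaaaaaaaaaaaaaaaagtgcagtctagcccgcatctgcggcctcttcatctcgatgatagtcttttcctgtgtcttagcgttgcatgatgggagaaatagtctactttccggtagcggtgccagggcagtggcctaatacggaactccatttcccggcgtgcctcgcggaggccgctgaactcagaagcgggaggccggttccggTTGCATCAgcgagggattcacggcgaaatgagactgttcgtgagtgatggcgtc
FARSA (GRCh37 chr19:13044476-13044775, minus strand): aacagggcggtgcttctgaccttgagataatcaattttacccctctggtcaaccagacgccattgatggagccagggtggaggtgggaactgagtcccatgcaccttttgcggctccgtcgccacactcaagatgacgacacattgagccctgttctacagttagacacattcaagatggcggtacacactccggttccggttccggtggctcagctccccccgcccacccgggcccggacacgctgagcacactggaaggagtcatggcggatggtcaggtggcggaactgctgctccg

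Shorter hypoxia response cores were also searched. ACGTG was found for 30.0% of the 30 synthetase genes and 24.9% of all genes, with 4 of the 10 known ATF4 targets and 0 of the 6 other cytosolic genes. GCGTG was found for 83.3% and 40.6%, with 10 of 10 and 3 of 6. These matches describe letters in a window and not bound sites, and the G and C content of the windows was not compared.

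The cytosolic decreases in hypoxic BFTC909 cells came from genes outside the ATF4 list. Both subunits of the phenylalanine enzyme fell. FARSA read 62.3 and 63.3 in normoxia, 32.3 and 33.8 in hypoxia with Scr-si and 28.7 and 37.4 in hypoxia with METTL4-si, with all hypoxic libraries well below normoxia (-0.90 ± 0.12 (SE), adjusted p = 0.000971). FARSB read 134 and 139 in normoxia, 81.8 and 81.7 in hypoxia with Scr-si and 86.2 and 72.5 in hypoxia with METTL4-si, likewise without overlap (-0.74 ± 0.088 (SE), adjusted p = 0.000659). KARS1 read 223 and 226 in normoxia, 142 and 146 in hypoxia with Scr-si and 118 and 110.2 in hypoxia with METTL4-si, in steps that did not overlap. Only its first step was called (-0.64 ± 0.064 (SE), adjusted p = 0.00031, with METTL4-si -0.33, adjusted p = 0.00751). VARS1 read 160.4 and 159 in normoxia, 99.0 and 107 in hypoxia with Scr-si and 96.0 and 103 in hypoxia with METTL4-si, lower in hypoxia (-0.63 ± 0.071 (SE), adjusted p = 0.000549) with METTL4-si libraries in the same range. The other decreases were those of HARS1 (histidine, -0.63, adjusted p = 0.000665) and RARS1 (arginine, -0.47, adjusted p = 0.00185). KARS1 overlaps TERF2IP over 871 bases on the other strand. HARS1 overlaps WDR55 over 1090 bases on the other strand and DND1 over 542 bases on the same strand. How many reads these genes share was not examined.

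The largest decrease in hypoxia among the 35 genes was mitochondrial. MARS2, at chr2:198570093-198573119, read 20.3 and 19.4 in normoxia, 7.76 and 7.74 in hypoxia with Scr-si and 11.5 and 9.46 in hypoxia with METTL4-si. On the scale of value + 1 it fell 2.38-fold in hypoxia (-1.25 ± 0.12 (SE), adjusted p = 0.000232). It was higher with METTL4-si (0.39 ± 0.12 (SE), adjusted p = 0.0402), still far below normoxia. The annotated span of a noncoding gene (ENSG00000222017) covers all 3027 bases of MARS2 on the same strand. Their exons were not compared, so how many reads the 2 genes share is not known. EARS2 read 45.0 and 44.3 in normoxia, 27.8 and 28.1 in hypoxia with Scr-si and 22.4 and 30.1 in hypoxia with METTL4-si, with hypoxic libraries lower (-0.66 ± 0.13 (SE), adjusted p = 0.00538). LARS2 read 44.7 and 48.5 in normoxia, 32.1 and 32.4 in hypoxia with Scr-si and 34.1 and 32.2 in hypoxia with METTL4-si, a close pair in each Scr-si group (-0.52 ± 0.079 (SE), adjusted p = 0.00184). YARS2 read 21.2 and 20.2 in normoxia, 12.8 and 14.7 in hypoxia with Scr-si and 12.3 and 14.2 in hypoxia with METTL4-si, lower in hypoxia (-0.56 ± 0.11 (SE), adjusted p = 0.00607). NARS2 (asparagine) fell as well (-0.56, adjusted p = 0.00219). The 3 other mitochondrial genes that fell in FADU were not called in BFTC909. AARS2 read 25.6 and 27.7 in normoxia, 22.5 and 24.4 in hypoxia with Scr-si and 25.6 and 28.1 in hypoxia with METTL4-si, lowest in the hypoxic Scr-si pair without a call (-0.18, adjusted p = 0.157). VARS2 read 10.9 and 11.1 in normoxia, 13.1 and 13.1 in hypoxia with Scr-si and 13.4 and 16.2 in hypoxia with METTL4-si, slightly higher in hypoxia (0.24, adjusted p = 0.125). SARS2 read 2.28 and 1.89 in normoxia, 1.59 and 1.62 in hypoxia with Scr-si and 1.08 and 1.86 in hypoxia with METTL4-si, not called (-0.24, adjusted p = 0.315).

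With METTL4-si the decreases in BFTC909 were those of EPRS1, GARS1, IARS2, TARS1 and NARS1 (-0.43, adjusted p = 0.0168). TARS1 read 244 and 241 in normoxia, 235 and 238 in hypoxia with Scr-si and 184 and 165 in hypoxia with METTL4-si, level in hypoxia (-0.035) and lower in both METTL4-si libraries (-0.44 ± 0.07 (SE), adjusted p = 0.0037). METTL4-si replicate 2, the library with high keratin values, read lower than replicate 1 for all 5. Without it 2 genes were called in place of 6, and EPRS1 (log2 fold change -0.35, adjusted p = 1.33e-05), IARS2 (log2 fold change -0.34, adjusted p = 4.21e-05), NARS1 (log2 fold change -0.27, adjusted p = 0.00022) and TARS1 (log2 fold change -0.36, adjusted p = 1.28e-05) fell under 1.3-fold. The count was 3 without Scr-si replicate 1, where EPRS1, MARS2 and NARS1 lost their calls (adjusted p 0.0623 to 0.166), 2 without Scr-si replicate 2, where EPRS1, IARS2, MARS2 and NARS1 did (adjusted p 0.0657 to 0.171), and 8 without METTL4-si replicate 1, where MARS2 did (log2 fold change 0.26, adjusted p = 0.0544). GARS1 was called in all 4 cases. In the hypoxia comparison 18 of the 20 calls held in each such fit, and IARS1 (adjusted p 0.0646 to 0.0756, lost without any 1 library) and YARS2 (adjusted p 0.0608 to 0.0626, lost without normoxia or hypoxia replicate 1) did not. Without METTL4-si replicate 2 in the fit the hypoxia count stayed at 9 up and 11 down.

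Genes of the integrated stress response, the pathway that ATF4 serves, also rose in hypoxic BFTC909 cells. Of 24 listed genes 17 rose (all genes 17.9%) and 1, ATF5 (-0.64), fell (all genes 18.3%), with a median of 0.62. Those with the smallest adjusted p included NUPR1 (2.28), PHGDH of serine synthesis (1.23), the amino acid carrier SLC7A5 (1.25) and VLDLR (2.37). ATF4 and ASNS, named after their values were seen, also rose. ATF4 read 165 and 165 in normoxia and 216 and 221 in hypoxia (0.40 ± 0.069 (SE), adjusted p = 0.00308). ASNS, asparagine synthetase, read 84.2 and 86.7 and 206 and 209 (1.27 ± 0.11 (SE), adjusted p = 0.000196). With METTL4-si 14 of the 24 fell (all genes 11.7%) and 1, CEBPB (0.60), rose (all genes 13.2%), with a median of -0.40. SLC7A5 stood at -1.68, its partner chain SLC3A2 at -0.76 and the mitochondrial folate enzyme MTHFD2 at -0.86. In FADU 3 of 23 rose (all genes 9.73%) and 7 fell (all genes 9.65%) in hypoxia (median -0.25). ATF4 read 329 and 339 in FADU normoxia against 261 and 278 in hypoxia (-0.31, adjusted p = 0.0283). ASNS was higher there, at 71.2 and 81.4 in normoxia against 97.6 and 98.2 in hypoxia, under 1.3-fold (0.36, adjusted p = 0.0375). ATF4 is controlled mainly in translation, which these data do not measure.

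Among the partners, 6 of 12 mitochondrial translation genes fell in hypoxic BFTC909 cells (all genes 18.3%) and none rose (all genes 17.9%). With METTL4-si none was called at an adjusted p below 0.05 and 1.3-fold by limma. The scaffold genes EEF1E1 (-0.86) and AIMP1 (-0.42) fell in hypoxia. Of the eIF2alpha kinases EIF2AK3 (PERK) rose (0.57) and EIF2AK4 (GCN2) fell (-0.50). Fibroblast markers, 1252 to 1352 in normoxia and 4699.9 to 4911 in hypoxia summed over the list, moved in the same comparison. So did 2 breast epithelium markers listed of 11, 424 to 441 in normoxia and 1176 to 1207 in hypoxia, and the 3 urothelial and simple epithelium markers listed of 8, 81.7 to 84.3 and 20.54 to 20.7. The part of these lists in the result was not tested, and the fibroblast list includes collagen genes that BFTC909 itself expressed in normoxia.

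**Figure D3:**
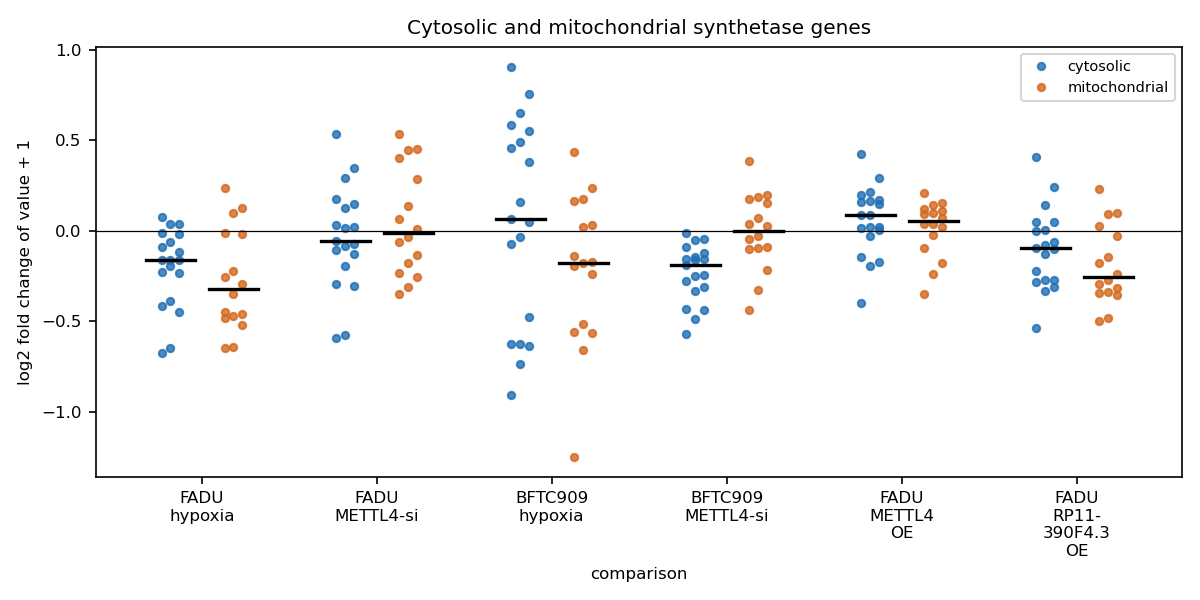
Log2 fold change (y axis, log2 of value + 1) of each cytosolic (blue) and mitochondrial (orange) synthetase gene in the 6 replicated comparisons (x axis), with bars at the medians. In BFTC909 hypoxia the cytosolic median is 0.067 and the mitochondrial median -0.18.

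The overexpressing lines changed few synthetase genes. With METTL4 OE 1 rose (all genes 8.0%) and 1 fell (all genes 10.5%), both cytosolic, with medians of 0.085 for cytosolic, 0.053 for mitochondrial and 0.0065 for all genes, and edgeR on recovered reads gave 1 and 2. With RP11-390F4.3 OE 1 rose (all genes 16.5%) and 3 fell (all genes 12.5%), 1 and 1 cytosolic and 0 and 2 mitochondrial, with medians of -0.093, -0.26 and 0.0091. The split became 0 and 9 after median-centring of the libraries. The 2 comparisons share the 2 control libraries.

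MARS1 read 198 and 189 in the control libraries, 169.9 and 174 in the METTL4 libraries and 134 and 132 in the RP11-390F4.3 libraries. It was called only in the RP11-390F4.3 line, where it fell (-0.54 ± 0.044 (SE), adjusted p = 3.61e-07, METTL4 OE -0.17, adjusted p = 0.00756). MARS2 read 17.1 and 18.0 in the control libraries, 17.8 and 18.2 in the METTL4 libraries and 12.4 and 11.9 in the RP11-390F4.3 libraries. The METTL4 libraries overlapped the controls and the RP11-390F4.3 libraries were lower (-0.50 ± 0.082 (SE), adjusted p = 0.000189). SARS2 read 5.15 and 5.21 in the control libraries, 3.78 and 3.94 in the METTL4 libraries and 3.66 and 3.21 in the RP11-390F4.3 libraries. It was lower in both lines, and called with RP11-390F4.3 (-0.48 ± 0.12 (SE), adjusted p = 0.0056, METTL4 OE -0.35, adjusted p = 0.0408). These 3 calls held without any 1 library.

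WARS1, at chr14:100800127-100843142, moved in opposite directions, reading 227 and 253 in the control libraries, 185 and 178 in the METTL4 libraries and 320.0 and 316 in the RP11-390F4.3 libraries. It fell with METTL4 OE (-0.40 ± 0.052 (SE), adjusted p = 4.22e-05) and rose with RP11-390F4.3 OE (0.41 ± 0.052 (SE), adjusted p = 2.11e-05), without overlap. The decrease dropped under 1.3-fold without control replicate 2 (log2 fold change -0.32, adjusted p = 0.0003) or METTL4 replicate 2 (log2 fold change -0.37, adjusted p = 0.00274), and the increase without control replicate 1 (log2 fold change 0.33, adjusted p = 0.000135) or after median-centring (log2 fold change 0.33, adjusted p = 0.000147). WARS1 is known as an interferon-inducible gene. Of 10 interferon response genes tested there 0 rose (all genes 8.0%) and 8 fell (all genes 10.5%) with METTL4 OE. With RP11-390F4.3 OE 5 rose (all genes 16.5%) and 1 (IRF1, -0.39) fell (all genes 12.5%). In the siRNA tables the list held 6 increases in FADU hypoxia (all genes 9.73%, WARS1 -0.12). With METTL4-si in FADU it held 1 increase and 1 decrease (all genes 12.5% and 15.3%, WARS1 0.29). It held 8 increases with METTL4-si in BFTC909 (all genes 13.2%, WARS1 -0.24) and no limma call in BFTC909 hypoxia (WARS1 0.55). FARSA read 31.1 and 31.5 in the control libraries, 45.4 and 39.4 in the METTL4 libraries and 36.3 and 33.0 in the RP11-390F4.3 libraries. It rose with METTL4 OE (0.42 ± 0.075 (SE), adjusted p = 0.000517), a call lost without METTL4 replicate 1 (log2 fold change 0.32, adjusted p = 0.0169).

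The other 14 genes described above were called in neither line, and their ranges over the 6 libraries follow. The cytosolic genes ran over AARS1 206 to 276, CARS1 52.7 to 69.1, EPRS1 259.7 to 323, FARSB 88.5 to 125, GARS1 153 to 196, KARS1 179 to 224, TARS1 380.5 to 476, VARS1 119 to 131. The mitochondrial genes ran over AARS2 26.0 to 33.5, EARS2 60.6 to 88.0, IARS2 167 to 214, LARS2 49.3 to 63.5, VARS2 16.1 to 20.9, YARS2 46.9 to 62.5. Of the related lists, the 12 mitochondrial translation partners and 3 complex scaffolds held no call by limma in either line. The integrated stress response list gave 2 up and 2 down of 23 with METTL4 OE (all genes 8.0% and 10.5%). With RP11-390F4.3 OE it gave 8 up and 7 down (all genes 16.5% and 12.5%). PPP1R15A, which encodes a regulatory subunit of an eIF2alpha phosphatase, rose in both lines (1.12 and 1.44). Of 5 cytosolic elongation factor genes tested, EEF1A1 (0.39), EEF1A2 (0.60) and EEF2 (0.43) rose with RP11-390F4.3 OE. Of the 6 proofreading and related genes, DTD1 rose (0.41) and AARSD1 fell (-0.66) there.

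**Figure D4:**
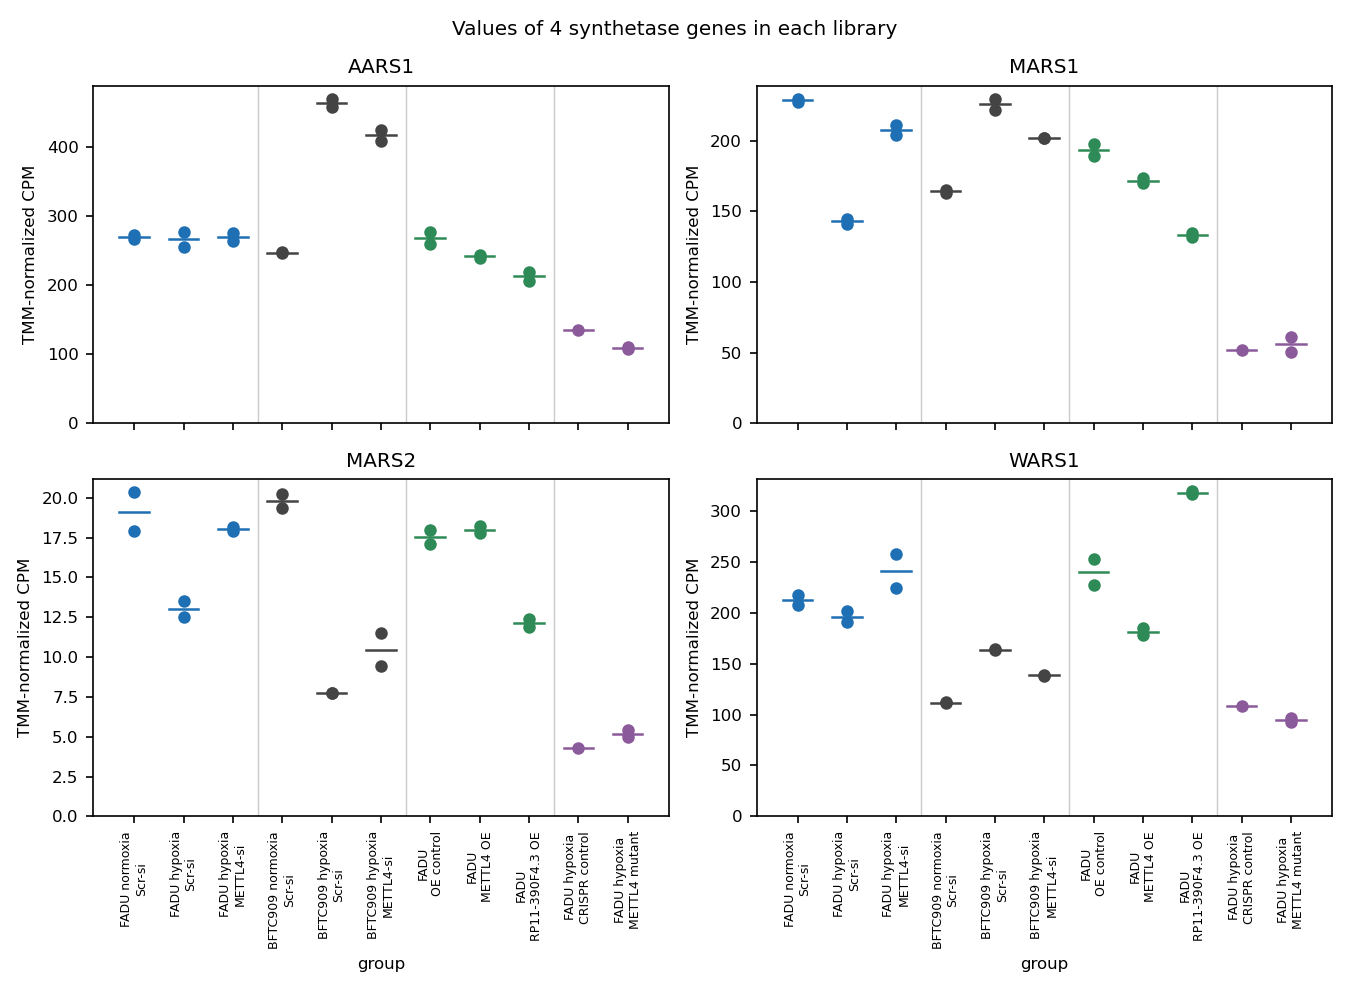
Value in every library (y axis, TMM-normalized CPM, from 0) of AARS1, MARS1, MARS2 and WARS1 by group (x axis), with points for libraries and bars for group means, and with grey lines between the 4 separately normalized tables. MARS1 is lower in hypoxic than in normoxic Scr-si libraries of FADU and higher in those of BFTC909, and MARS2 is lower in both. Totals of the CRISPR control and mutant libraries include reads assigned to no gene, so their levels cannot be compared with the other groups.

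MARS2 was called in 5 of the 6 comparisons, the most among the 35 genes, and MARS1 in 4. The calls of MARS1 held in each leave-one-out fit, and those of MARS2 did so in BFTC909 hypoxia and with RP11-390F4.3 OE. MARS1 overlaps DDIT3, which encodes CHOP, over 982 bases on the opposite strand. The kit marks strand, but without the counting setting reads of the 2 genes cannot be told apart where they overlap. DDIT3 was not called in FADU hypoxia (-0.20, adjusted p = 0.45) and rose in BFTC909 hypoxia (0.87, adjusted p = 0.000773) and with RP11-390F4.3 OE (0.49, adjusted p = 0.00166).

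With 1 control library, the METTL4-mutant clones allow values but no test. The 2 clones share that control. Ratios of at least 1.3-fold above it in both clones were found for 2 of the 35 genes (all genes 10.3%), and none was 1.3-fold below it in both (all genes 11.7%). NARS1 read 28.9 in the control library and 45.4 and 41.3 in the clones. IARS1 read 146 in the control library and 206 and 192 in the clones. These 2 genes were picked by the distance of both clones from the single control, so that distance is no further result. Of the 35, 18 were higher in both clones (all genes 41.6%), 8 lower in both (all genes 39.5%) and 9 higher in 1 and lower in the other. The median log2 ratio was 0.051 for cytosolic, 0.14 for mitochondrial and 0.0075 for all genes.

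Genes that stood out elsewhere were mixed in the clones. MARS1 read 52.0 in the control library and 61.1 and 50.5 in the clones, on either side of the control. WARS1 read 108 in the control library and 92.97 and 96.9 in the clones, and 8 of 10 interferon response genes were at least 1.3-fold lower in both clones (all genes 11.7%). TARS1 read 219 in the control library and 285 and 296 in the clones, and EPRS1 129 in the control library and 182 and 165 in the clones, both higher. VARS1 read 41.5 in the control library and 52.5 and 63.5 in the clones, with the second clone the higher. GARS1 read 84.4 in the control library and 100.4 and 63.3 in the clones, so that the clones disagreed. AARS1 read 135 in the control library and 111 and 107 in the clones. Reads assigned to no gene were part of this table's totals, so its levels cannot be compared with those of the other tables.

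**Figure D5:**
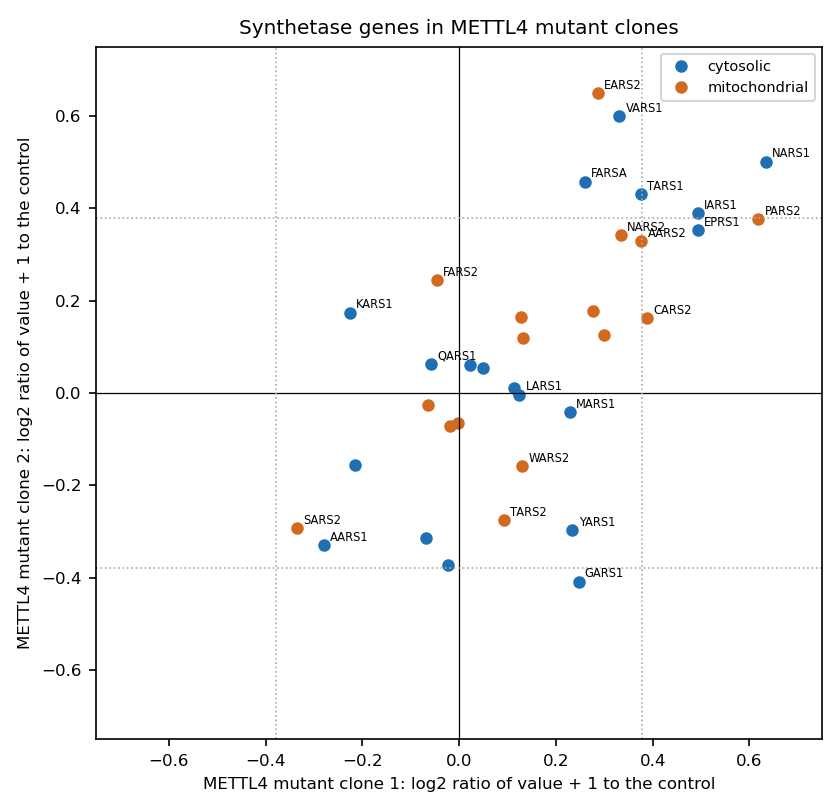
Log2 ratio to the single CRISPR control library (log2 of value + 1) of each synthetase gene in mutant clone 1 (x axis) and clone 2 (y axis), coloured by compartment, with dotted lines at 1.3-fold. Both axes share the control library, and NARS1 and IARS1 lie above 1.3-fold in both clones.

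Over the 6 replicated comparisons 26 of the 35 genes were called at least once and 17 at least in 2. The matching shares over all genes were not counted, and pairs of comparisons share libraries, so these counts describe the members alone. The 9 never called were CARS2, FARS2, HARS2, LARS1, PARS2, RARS2, TARS2, WARS2 and YARS1, 7 of them mitochondrial, with log2 fold changes from -0.35 to 0.23. LARS1 and YARS1 are known ATF4 targets, and read 265 and 261 and 197 and 195 in normoxic and 277 and 275 and 216 and 221 in hypoxic BFTC909 libraries. YARS1 was slightly higher in hypoxia, under 1.3-fold (0.16, adjusted p = 0.0949). LARS1 was also higher in both hypoxic libraries, by less (0.067, adjusted p = 0.551).

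The 2 structural classes of synthetase, which differ in the fold of the catalytic site, both held calls, and EPRS1, whose 2 activities belong to different classes, was left out here. Of 18 class I genes 0 up and 8 down were called in FADU hypoxia and 5 up and 6 down in BFTC909 hypoxia. Of 16 class II genes the counts were 0 up and 3 down and 3 up and 5 down. In BFTC909 hypoxia the 7 synthetases of the multisynthetase complex gave 3 up and 2 down, and the 12 cytosolic genes outside it 5 up and 4 down. Of 6 proofreading and related genes outside the rule, such as the selenocysteine enzyme gene SEPSECS and the deacylase gene DTD2, 1 up and 1 down were called there. These counts have no test of their own. Over all genes tested 9.73% rose and 9.65% fell in FADU hypoxia, and 17.9% rose and 18.3% fell in BFTC909 hypoxia. With METTL4-si 12.5% rose and 15.3% fell in FADU, and 13.2% rose and 11.7% fell in BFTC909. The shares up and down were 8.0% and 10.5% with METTL4 OE and 16.5% and 12.5% with RP11-390F4.3 OE. For comparison, 10 hypoxia response genes gave 9 up and 1 down in FADU hypoxia, 10 up and 0 down in BFTC909 hypoxia, 1 up and 9 down and 0 up and 10 down with METTL4-si, 9 up and 0 down with METTL4 OE and 10 up and 0 down with RP11-390F4.3 OE.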

How the data were processed

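RNA of FADU and BFTC909 cells was made into 21 libraries with a ribosomal-depletion stranded kit. Per the submitters' processing notes, reads were handled with Trim Galore, HISAT2, HTSeq and edgeR on hg19, with versions not given in the sources used here. The deposited signal values are gene counts divided by TMM-scaled library sizes and given as CPM, in 4 tables normalized separately by the authors. The authors' tables of fold changes and p-values (log2 fold change, mean log2 CPM, F statistic, p-value) hold their own comparisons and were not used. The columns named MAHAC were taken as RP11-390F4.3 OE by elimination. Among the mutant libraries 40.9 to 43.0% of reads were assigned to no gene and stayed in the authors' totals. Only the entries for these unassigned reads were left out here.

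Whole reads were recovered for 100% of values (within 0.1 read), 17781791 to 25410656 reads a library, so counting error is small for most genes. Genes at 1 or more in at least 2 libraries were tested with limma 3.58.1 (R 4.3.3) on log2(value + 1), with a trended prior, all 6 libraries of a table and Benjamini-Hochberg adjustment over all genes. The test was tried on simulated data. Alternatives used edgeR 4.0.16, DESeq2 1.42.0, pseudocounts of 0.1 and 5, other filters, median-centring, the 2 groups alone, a replicate block and fits without each library. Over all genes edgeR called 3029 to 5497 per comparison and limma 2894 to 5382.

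Members and lists were chosen with earlier results of these data known. The rule found 37 genes, of which 2 are not reported here and enter no count of members. Members called in at least 2 comparisons, or among the 3 largest called changes of a direction in 1, were described in full. Of other lists, at most 4 genes with the smallest adjusted p were named, and members of counts of 5 or fewer were named after their values were seen. Coordinates are from GENCODE v44 lifted to GRCh37.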

Additional observations from a re-analysis of the deposited data

Results flagged for a closer look

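Some genes moved in opposite directions in the 2 cell lines, with both libraries of each group on the same side. In hypoxia the log2 fold changes had opposite signs for 11 genes. The share of all genes that meet this rule was not counted, in hypoxia or with METTL4-si, so the counts describe the members alone. Lower in FADU and higher in BFTC909 were EPRS1 (-0.20 in FADU and 0.49 in BFTC909), GARS1 (-0.16 in FADU and 0.65 in BFTC909), IARS1 (-0.16 in FADU and 0.38 in BFTC909), MARS1 (-0.67 in FADU and 0.46 in BFTC909), QARS1 (-0.45 in FADU and 0.051 in BFTC909), TARS2 (-0.29 in FADU and 0.16 in BFTC909), VARS2 (-0.64 in FADU and 0.24 in BFTC909), WARS1 (-0.12 in FADU and 0.55 in BFTC909) and YARS1 (-0.24 in FADU and 0.16 in BFTC909). Higher in FADU and lower in BFTC909 were RARS2 (0.096 in FADU and -0.14 in BFTC909) and TARS1 (0.076 in FADU and -0.035 in BFTC909). Of these, MARS1 was called in both lines, VARS2 and QARS1 were called in FADU alone and EPRS1, GARS1, IARS1 and WARS1 in BFTC909 alone.

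With METTL4-si in hypoxia 4 genes were higher in FADU and lower in BFTC909, namely EPRS1 (0.15 in FADU and -0.49 in BFTC909), MARS1 (0.54 in FADU and -0.16 in BFTC909), QARS1 (0.34 in FADU and -0.19 in BFTC909) and WARS1 (0.29 in FADU and -0.24 in BFTC909). MARS1 was called in FADU and EPRS1 in BFTC909. The tables of the 2 lines were normalized separately, so the difference between lines was not tested, and several of these values are smaller than the 1.3-fold threshold. Groups of 2 libraries were too small for an outlier test.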

How the results depend on the processing

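Leaving out 1 library at a time gave 2 to 3 called genes in FADU hypoxia (11 in full), 2 to 7 with METTL4-si in FADU (7), 18 to 19 in BFTC909 hypoxia (20), 2 to 8 with METTL4-si in BFTC909 (6), 1 to 2 with METTL4 OE (2) and 4 each time with RP11-390F4.3 OE (4). The cytosolic minus mitochondrial median then ran over 0.12 to 0.27, -0.049 to -0.028, 0.16 to 0.32, -0.30 to -0.13, -0.0051 to 0.061 and 0.11 to 0.22 in the same order, against 0.16, -0.045, 0.24, -0.18, 0.032, 0.16 in full, so that its sign with METTL4 OE turned without control replicate 2 (-0.0051). The causes of these shifts were not tested. Without a fold threshold 15, 12, 16 and 22 genes were called in FADU METTL4-si, BFTC909 METTL4-si, METTL4 OE and RP11-390F4.3 OE. A pseudocount of 5 left 3 in FADU METTL4-si and a median difference of 0.20 in BFTC909 hypoxia, and median-centring gave 9 with RP11-390F4.3 OE. Leaving out the marker-bearing libraries, chosen after seeing the data, gave 2 with METTL4-si in BFTC909. In the mutants clone 1 alone gave -0.0068 in place of -0.085.

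Of single calls, SARS2 (FADU METTL4-si, RP11-390F4.3 OE) and MARS2 (BFTC909 METTL4-si) were lost in DESeq2, and FARSB and SARS2 (FADU hypoxia), AARS2 and SARS2 (FADU METTL4-si), MARS2 (BFTC909 METTL4-si) and WARS1 (RP11-390F4.3 OE) after median-centring. A pseudocount of 5 lost 7 calls, of AARS2, MARS2, SARS2 and VARS2 (FADU METTL4-si), IARS1 (BFTC909 hypoxia), MARS2 (BFTC909 METTL4-si) and SARS2 (RP11-390F4.3 OE). Fits to the 2 groups alone lost 3, of SARS2 and VARS2 (FADU METTL4-si) and MARS2 (BFTC909 METTL4-si). Of the 50 calls, 25 held under every alternative run, and none reversed. Same-numbered replicates shared their deviations in 1 pair of groups, FADU normoxia with METTL4-si (correlation 0.648, the groups of the 2 FADU siRNA libraries with the most breast markers). Other pairs gave -0.0652 to 0.154, so the numbers were not taken as pairs. A replicate block called 11, 7, 20, 6, 2, 4 genes in the 6 comparisons, as many as without it.

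With 2 libraries per group, genes near 1.3-fold and low genes such as SARS2 are the least certain.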
